A study of Homo sapiens with 2 samples.

Results

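The myosin heavy chain genes examined were MYH1, MYH2, MYH3, MYH4, MYH6, MYH7, MYH8, MYH9, MYH10 and MYH11, 10 of the 19775 genes that had a probe set of their own on the array. All probe sets that the platform annotation assigns to these genes were read, 19 of 54675. Of the 19, 18 were assigned to 1 gene and 1, probe set 204737_s_at, to both MYH6 and MYH7. The values came from the human embryonic stem cell line HUES9 at passage 32, grown as embryoid bodies for 10 days and then as an adherent outgrowth on fibronectin in chemically defined medium. In the first condition, SB-OG, the cells received SB-431542, which blocks the kinase activity of the ALK receptors that answer to TGF-β, to activin and to nodal, at 10 µM in the embryoid body stage and at 1 µM in the outgrowth stage. In the other, control-OG, they received the vehicle DMSO at 0.01%. For each condition 3 samples taken at outgrowth passage 5 were mixed, and the mixed RNA went onto 1 array, which leaves n = 1 in either condition. Every statement below compares these 2 arrays only, without replicates and without a test. The comparison addresses how the inhibitor bears on mesodermal differentiation of the line.

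A class II myosin is a motor made of a pair of heavy chains, each with a head that binds actin and splits ATP and a long tail that assembles into filaments, together with light chains. Sarcomeric heavy chains build the thick filaments of striated muscle and are used in turn: the embryonic form MYH3 and the perinatal form MYH8 in developing skeletal muscle, the fast forms MYH1, MYH2 and MYH4 in adult skeletal muscle, and MYH6 and MYH7 in the heart, MYH7 also in slow skeletal fibres. MYH11 is the heavy chain of smooth muscle, and MYH9 and MYH10 are the non-muscle heavy chains IIA and IIB, which drive contraction, adhesion and cytokinesis in most cells. In the GRCh38.p14 gene table, MYH13, MYH8, MYH4, MYH1, MYH2 and MYH3 lie in this order on chromosome 17 with no other protein-coding gene between neighbours. MYH10 is elsewhere on chromosome 17, MYH6 and MYH7 are on chromosome 14, MYH11 is on chromosome 16 and MYH9 on chromosome 22.

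Values are linear intensities per probe set as deposited. The background level of an array was set at the 95th percentile of 219 probe sets for gene families taken to be unused in these cells, such as olfactory receptors. It was 27.0 on SB-OG and 31.8 on control-OG. A value under background was set to that level before a difference was taken, so a fold for a probe set above background on 1 array only is a lower bound and is written "at least". Log2 differences were taken as SB-OG minus control-OG, and genes were counted at 2-fold. Where a gene had several probe sets, their log2 differences had an SD of 0.47 around the gene's mean, over 4962 genes with more than 1 probe set above background on both arrays. That SD is a technical spread within this pair of arrays and not a replicate error. The ratio of 3′ to 5′ signal was 0.958 on SB-OG and 0.995 on control-OG for GAPDH, and 1.55 on SB-OG and 1.65 on control-OG for ACTB. Of 9 skeletal muscle markers, 8 were above background on SB-OG and 2 on control-OG, with MYF5 under it on both arrays. Of all 19775 genes, 11693 were above background on SB-OG and 11350 on control-OG. Of the 8 markers, 7 were at least 2-fold higher on SB-OG, beside 12.4% of all genes above background on either array. Of those 7, 5 passed background only on SB-OG, which favours a higher value there. MYF6 was not among the 7, with 34.4 on SB-OG, 3.33 on control-OG and a bound of 0.11 on the log2 scale. Levels of different probe sets are not set against each other, because their probes differ in binding.

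Upstream sequence from RefSeq (GRCh38.p14) was matched for 7 of the 10 genes. For MYH3, MYH7 and MYH11 none was at hand, so no statement on sequence below covers them. It is shown for the 4 genes of the chromosome 17 cluster that were matched, since MYH8 and MYH2 were above background on SB-OG and their neighbours MYH1 and MYH4 were not, and for MYH9 as a heavy chain with a lower value on SB-OG. Each is the 250 bases before the gene's start, on the minus strand: MYH8 at chr17:10421951-10422200, MYH2 at chr17:10549659-10549908, MYH1 at chr17:10518543-10518792, MYH4 at chr17:10469560-10469809 and MYH9 at chr22:36387968-36388217. Capitals mark a run of 15 bases present in all 4 matched cluster genes, TTCTAATTATATCCA, every E-box (CANNTG), every TATAAA on the gene's strand and every MEF2 box.
MYH8: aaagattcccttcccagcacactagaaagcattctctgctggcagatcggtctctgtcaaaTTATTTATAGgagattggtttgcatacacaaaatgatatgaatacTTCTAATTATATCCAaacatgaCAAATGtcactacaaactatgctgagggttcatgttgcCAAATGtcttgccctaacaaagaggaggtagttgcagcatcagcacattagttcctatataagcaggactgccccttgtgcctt
MYH2: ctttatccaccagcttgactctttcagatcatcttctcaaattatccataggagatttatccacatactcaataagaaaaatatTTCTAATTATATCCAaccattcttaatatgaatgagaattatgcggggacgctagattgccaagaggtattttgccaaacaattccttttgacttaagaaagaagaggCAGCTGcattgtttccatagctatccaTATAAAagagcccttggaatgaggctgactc
MYH1: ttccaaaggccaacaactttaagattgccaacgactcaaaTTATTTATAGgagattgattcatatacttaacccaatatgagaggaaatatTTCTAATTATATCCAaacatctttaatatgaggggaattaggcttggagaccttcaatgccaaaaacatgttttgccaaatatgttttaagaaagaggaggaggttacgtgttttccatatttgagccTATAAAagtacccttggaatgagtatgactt
MYH4: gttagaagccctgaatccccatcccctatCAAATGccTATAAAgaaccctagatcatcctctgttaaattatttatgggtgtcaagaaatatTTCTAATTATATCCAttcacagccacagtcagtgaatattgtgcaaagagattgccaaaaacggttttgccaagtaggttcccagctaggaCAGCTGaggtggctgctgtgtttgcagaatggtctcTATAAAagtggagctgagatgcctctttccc
MYH9: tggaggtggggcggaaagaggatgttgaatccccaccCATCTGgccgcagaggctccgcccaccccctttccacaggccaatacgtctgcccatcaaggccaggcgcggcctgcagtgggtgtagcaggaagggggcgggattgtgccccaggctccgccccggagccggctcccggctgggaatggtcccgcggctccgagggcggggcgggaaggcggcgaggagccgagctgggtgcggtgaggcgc

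The run of 15 bases was taken as the longest stretch common to the windows of MYH8, MYH2, MYH1 and MYH4, so its presence there was set in advance. Of 35116 upstream windows of the same length, searched on both strands, only these 4 held it. It began 144 bases before the start in MYH8, 166 in MYH2, 159 in MYH1 and 158 in MYH4. MYH2, MYH1 and MYH4 shared a longer run of 21 bases around it, AAATATTTCTAATTATATCCA, which no other window held. The longer run was likewise taken as the longest that those genes had in common. By its choice, the run of 15 bases was in genes with a signal on SB-OG (MYH8, MYH2) and in genes without one (MYH1, MYH4). E-boxes, the core sites of MYOD-type factors, were present in MYH8, MYH2, MYH4, MYH9 and MYH10 and in 61.8% of all windows, while the form CAGCTG was in MYH2 and MYH4 and in 14% of all windows. A MEF2 box was present in MYH8 and MYH1 and in 2.8% of all windows, and a CArG box in none of the 7 genes and in 1.16% of all windows. TATAAA stood on the gene's strand in MYH2, MYH1, MYH4 and MYH6, with a match beginning 30 or 31 bases before the start in each, and in 6.8% of all windows. The share of G and C was 40.4% in MYH8, 36.4% in MYH2, 33.6% in MYH1 and 42.4% in MYH4. It was 56.8% in MYH6, 71.6% in MYH9 and 67.2% in MYH10, beside a median of 58% over all windows. Such matches describe the sequence and do not show that a factor binds there.

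**Figure D1:**
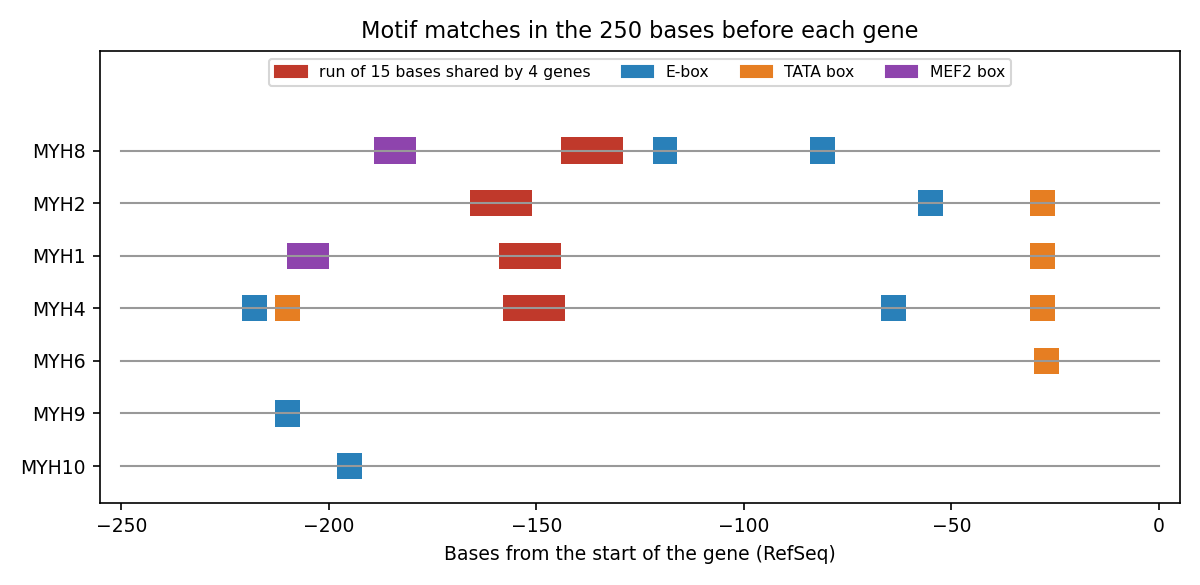
Motif matches in the 250 bases before the start of 7 myosin heavy chain genes. The x axis is the distance from the gene's start in bases and each row is a gene. Boxes are drawn to scale, and the run of 15 bases begins between 166 and 144 bases before the start in MYH8, MYH2, MYH1 and MYH4.

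Taken over the 10 genes, each by its brightest probe set, 4 were at least 2-fold higher on SB-OG (MYH3, MYH8, MYH2 and MYH11) and 1 was at least 2-fold lower (MYH9). MYH10 was within 2-fold, MYH7 passed background on SB-OG by too little for a fold, and MYH1, MYH4 and MYH6 were under background on both arrays. Among the 12582 genes with a value past background on either array, the shares at least 2-fold higher and lower on SB-OG were 12.4% and 13.0%. The median difference of the 7 heavy chains above background was 4.34, with bounds taken at their value, and that of all 12582 genes was -0.022. Of the 7 sarcomeric heavy chains, 4 were above background on SB-OG and 1, MYH3, on control-OG. Of all 19775 genes, 11693 were above background on SB-OG and 11350 on control-OG, so the SB-OG share of the 7 was near that of all genes. Of the 10 heavy chain genes 4 were above background on SB-OG only (MYH8, MYH2, MYH7 and MYH11), as were 6.23% of all 19775 genes. At the level of probe sets, 10 of 19 were above background on SB-OG only, 4 on both arrays, 5 on neither and 0 on control-OG only. By probe set, 9 were at least 2-fold higher on SB-OG and 1 lower, beside 12.7% and 12.0% of all probe sets of 1 gene that were above background on either array. A probe set that passes on SB-OG only is nearly bound to be higher there, so these counts describe the arrays and support no direction. Before any floor, 16 of 19 probe sets had the higher value on SB-OG, and the 3 with the lower value were those of MYH9 and MYH10. The 16 include the 5 under background on both arrays, whose values have no order, and all 7 of MYH11. The share of all probe sets higher before any floor was not taken, so this count supports no direction either.

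**Figure D2:**
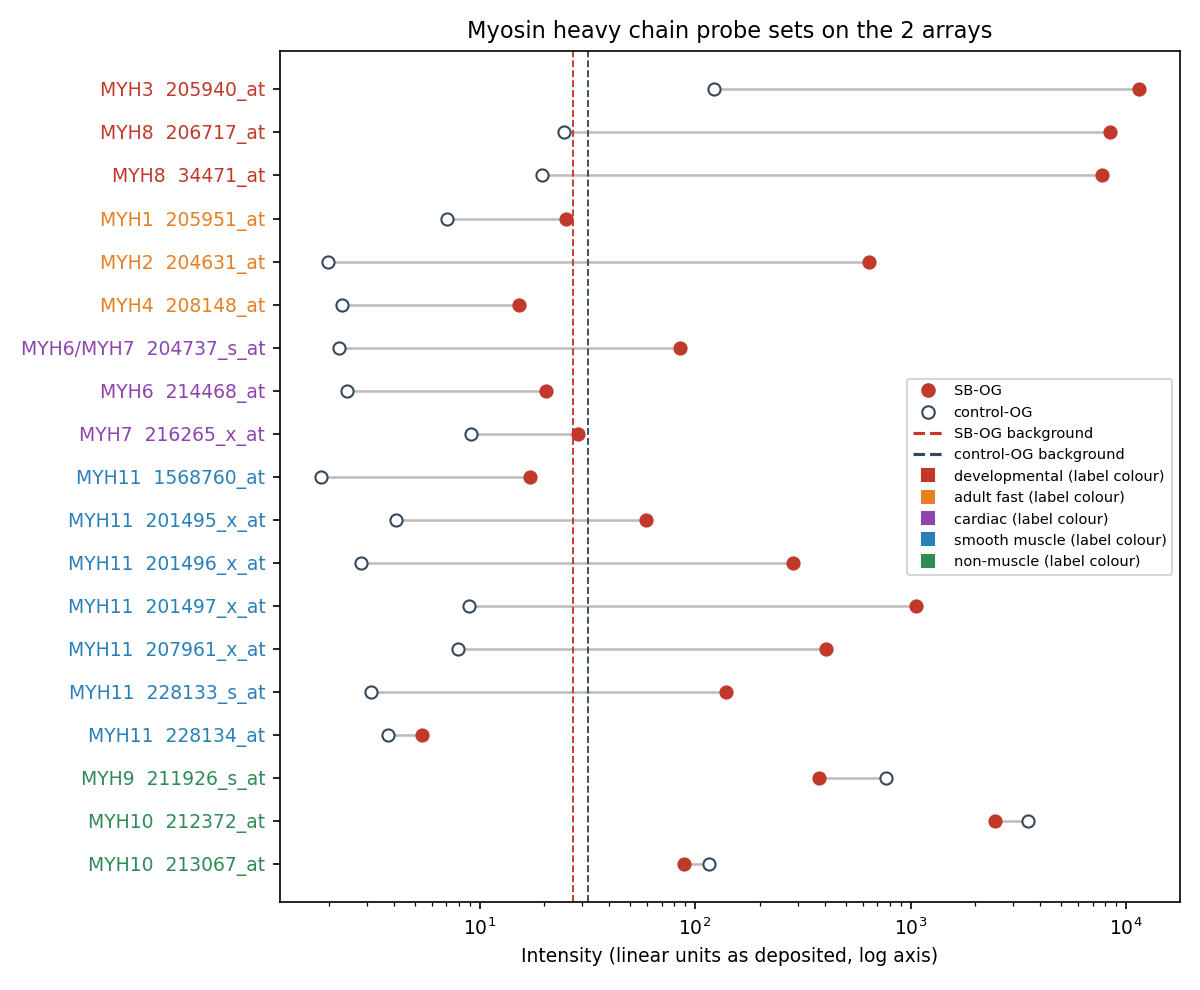
Intensity of the 19 myosin heavy chain probe sets on SB-OG (filled) and control-OG (open), on a log axis, with the background level of each array as a dashed line. Rows are ordered by class, shown by label colour. MYH3 and MYH8 reach 11478 and 8392 on SB-OG, the MYH11 probe sets spread from below background to 1064 on SB-OG, and only MYH9 and MYH10 have the open point on the right.

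Of the heavy chain genes, only MYH3, MYH9 and MYH10 were above background on both arrays, and of them only MYH3 was higher on SB-OG. The other developmental form, MYH8, gave a bound only. Bounds have no order among themselves or against the measured MYH3 value, since the true difference of MYH8, MYH2 or MYH11 may be any size above its bound. MYH3, the embryonic heavy chain of the first muscle fibres, had an intensity of 11478 on SB-OG and 123 on control-OG. It was above background on both arrays, so its 93.6-fold difference is measured on both sides. The log2 difference of 6.55 ranked 7 of 10461 genes above background on both arrays. With 2 arrays the likeness of another gene to MYH3 can only be the nearness of that 1 difference. The 3 genes ranked just above MYH3 were NEB, the thin filament ruler nebulin, TTN, the sarcomere spring titin, and CHRNA1, a subunit of the muscle acetylcholine receptor. The 3 ranked just below were SRL, a calcium-binding protein of the sarcoplasmic reticulum, MEF2C, a transcription factor of muscle, and LINC03013. Their log2 differences lay between 6.11 and 6.85, each by the brightest probe set. Other probe sets above background on either array gave 0.097 for NEB, 3.09 to 4.73 for TTN, 2.53 for CHRNA1 and 4.18 to 6.84 for MEF2C. Measured values and bounds are not told apart among these, so they are not ordered against the brightest. MYH3, SRL and LINC03013 had no other such probe set. The nearness shown thus rests on 1 probe set in each of these genes but MEF2C.

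MYH8, the perinatal heavy chain, was read by a pair of probe sets. Probe set 206717_at had an intensity of 8392 on SB-OG and 24.7 on control-OG, at least 263-fold higher. Probe set 34471_at had 7754 on SB-OG and 19.4 on control-OG, at least 243-fold higher. The pair thus gave bounds of 8.04 and 7.93 on the log2 scale, which share the control-OG background level and so differ only by the SB-OG values. On control-OG both were under the background level of 31.8, at 0.775 and 0.609 of it, whereas MYH3 was at 3.85 times that level. On control-OG the embryonic heavy chain was thus above background and the perinatal one was not. The mixture holds RNA of many cells, so fewer muscle cells and less RNA per cell cannot be told apart.

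The adult fast heavy chains divided. MYH2, the heavy chain of fast IIA fibres, had an intensity of 644 on SB-OG and 1.98 on control-OG, at least 20.2-fold higher. MYH1, the heavy chain of fast IIX fibres, had 25.3 on SB-OG and 7.08 on control-OG, and MYH4, that of IIB fibres, had 15.3 on SB-OG and 2.30 on control-OG. MYH1 lay at 0.935 of the SB-OG background level and MYH4 at 0.565, so neither has a fold and neither was detectable at this background. All 3 had the higher number on SB-OG, but values under background have no order. The order of the genes along chromosome 17 does not separate them by signal, since MYH4 and MYH1 lie between MYH8 and MYH2, which were above background on SB-OG.

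The cardiac heavy chains were near background. MYH6, the atrial heavy chain, had an intensity of 20.4 on SB-OG and 2.42 on control-OG by its own probe set, under background on both arrays. MYH7, the heavy chain of ventricle and slow skeletal fibres, had 28.7 on SB-OG and 9.11 on control-OG by its own probe set 216265_x_at. That value passed the SB-OG background by a factor of 1.06 but lay below the control-OG background, so no fold is given. The probe set assigned to both genes, 204737_s_at, had 85.0 on SB-OG and 2.23 on control-OG, at least 2.67-fold higher, and this signal cannot be given to either gene. With a background at the 99th percentile its bound was 0.71 on the log2 scale, under 2-fold. Of 8 cardiac markers, 1 was above background on SB-OG and 1 on control-OG, beside 11693 and 11350 of all 19775 genes. Neither marker had a bound past 2-fold. Most of the 8 were under background on both arrays, so their summed intensity, 154 on SB-OG and 139 on control-OG, has no order. NKX2-5, the early cardiac homeobox factor, had 26.3 on SB-OG and 14.7 on control-OG, and MYL7, the atrial light chain, had 2.27 on SB-OG and 24.6 on control-OG, all under background.

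MYH11, the smooth muscle heavy chain, was read by 7 probe sets that gave unlike answers. The brightest, 201497_x_at, had an intensity of 1064 on SB-OG and 8.93 on control-OG, at least 33.4-fold higher. Probe set 207961_x_at had 404 on SB-OG and 7.90 on control-OG, at least 12.7-fold higher, and 201496_x_at had 285 on SB-OG and 2.82 on control-OG, at least 8.95-fold higher. The 5 probe sets above background on SB-OG were the 4 whose name ends in _x_at and the 1 ending in _s_at, with bounds between 0.90 and 5.06 on the log2 scale. By the array maker's naming, _x marks probe sets with probes that may also bind other sequences, and _s marks those shared by several transcripts. The 2 probe sets with neither mark were under background on both arrays, 1568760_at with 17.1 on SB-OG and 1.83 on control-OG and 228134_at with 5.37 on SB-OG and 3.74 on control-OG. When only unmarked probe sets were used, MYH11 was under background on both arrays and its 2-fold call was lost.

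Other smooth muscle genes, like most genes above background, were mostly within 2-fold by their brightest probe set. Of 8 smooth muscle markers, all 8 were above background on both arrays. Of them 1 was at least 2-fold higher on SB-OG and 0 at least 2-fold lower, beside 12.4% and 13.0% of all genes above background. The markers had a median difference of -0.40. The summed intensity of the 8 was 25561 on SB-OG and 29011 on control-OG, set mostly by the bright ACTA2, TAGLN and CALD1 probe sets. Other probe sets of the 8 markers went past 2-fold higher for ACTA2, the smooth muscle actin, at 1.63 on the log2 scale. They also did so for SYNPO2, an actin-binding protein, at up to 3.31. LMOD1, the actin filament nucleator leiomodin, had 296 on SB-OG and 142 on control-OG. MYOCD, the coactivator of the smooth muscle programme, had 95.5 on SB-OG and 175 on control-OG, and CNN1, the smooth muscle calponin, had 414 on SB-OG and 649 on control-OG. What part of the MYH11 signal came from RNA of other heavy chains was not tested.

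The non-muscle heavy chains were the members with lower values on SB-OG. MYH9, the IIA heavy chain of stress fibres and adhesion sites, had an intensity of 375 on SB-OG and 769 on control-OG by its only probe set, 211926_s_at. That is a 2.05-fold lower value, -1.04 on the log2 scale, just past the 2-fold limit, and 11.9% of the 10461 genes above background on both arrays ranked as low or lower. With the arrays centred on their medians the difference was -0.98, and with scaling on the hybridisation controls -0.56, both within 2-fold. MYH10, the IIB heavy chain, had 2472 on SB-OG and 3507 on control-OG by 212372_at, and 89.1 on SB-OG and 116 on control-OG by 213067_at. Its differences of -0.50 and -0.38 were within 2-fold, and -0.030 and 0.098 when scaled on the hybridisation controls, a scaling that raised every SB-OG value by 0.48. The median of all genes moved with it to 0.45, so the scaling leaves every gene's place relative to the others as it was. Of 8 fibroblast and mesenchymal markers, 6 were at least 2-fold lower on SB-OG and 1 higher, beside 13.0% and 12.4% of all genes above background. Other probe sets were within 2-fold for PDGFRA (-0.077), COL1A1 (up to -0.59) and DCN (up to -0.74). For COL3A1, within 2-fold by its brightest probe set, others reached -2.04. The summed intensity of the 8 was 36795 on SB-OG and 81454 on control-OG, set mostly by COL1A1, COL3A1 and DCN. The part of the 8 markers in the MYH9 value was not tested.

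**Figure D3:**
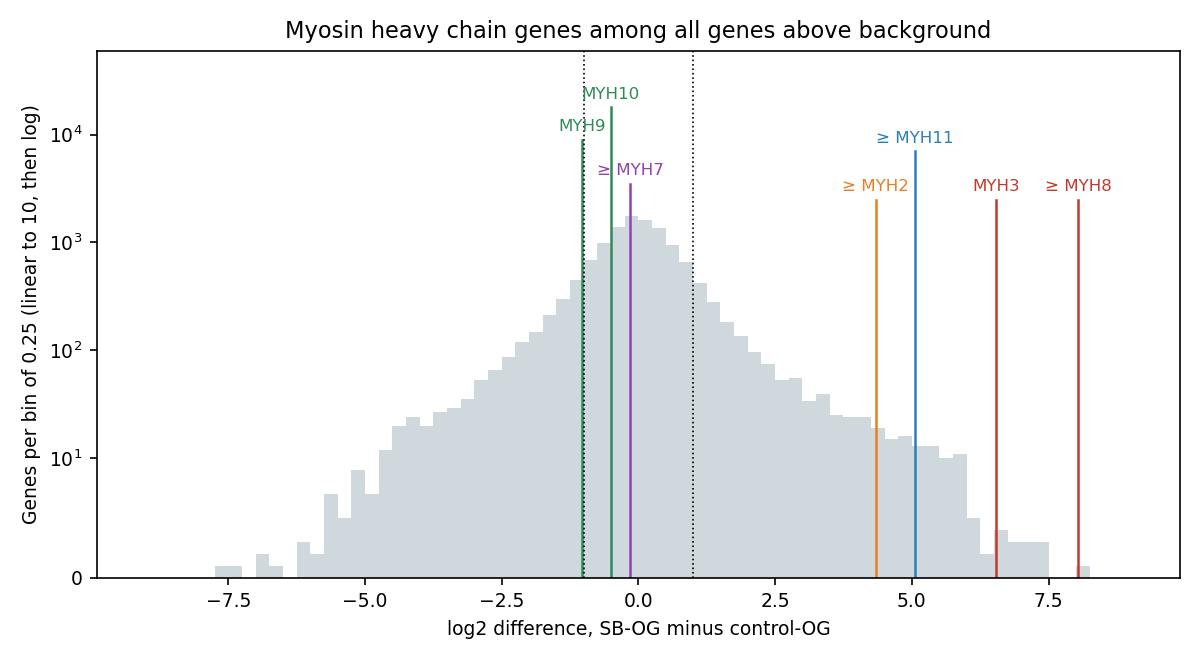
Log2 difference, SB-OG minus control-OG, of the 7 myosin heavy chain genes above background (coloured lines) over the histogram of 12582 genes (grey, bins of 0.25, y axis linear to 10 and then log). Dotted lines mark 2-fold and ≥ marks a lower bound. MYH3 at 6.55 and MYH8 at 8.04 or more lie in the far right tail, while MYH9 at -1.04 and MYH10 at -0.50 lie in the body of the distribution.

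The proteins that work with these motors were read by list. Of 16 genes for thick filament binding, the M-band and myosin folding, 12 were at least 2-fold higher on SB-OG and none lower, beside 12.4% and 13.0% of all genes above background. Of the 12, 8 passed background only on SB-OG, which favours a higher value there, and the list's median of 3.12 takes their bounds as values. Among them MYBPH, a myosin binding protein, had an intensity of 4208 on SB-OG and 3.56 on control-OG, at least 132-fold higher. UNC45B, the chaperone that folds the heads of muscle myosin, had 2361 on SB-OG and 10.8 on control-OG, at least 74.1-fold higher. SMYD1, a methyltransferase of myosin assembly, had 1244 on SB-OG and 17.0 on control-OG, at least 39.1-fold higher, and MYBPC2, the fast myosin binding protein C, had 1233 on SB-OG and 6.17 on control-OG, at least 38.7-fold higher. The general chaperone UNC45A, a paralogue of UNC45B that serves non-muscle myosin, had 169 on SB-OG and 186 on control-OG, within 2-fold.

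Of 10 myosin light chain genes above background, 5 were at least 2-fold higher on SB-OG and none lower, with a median of 1.03, beside 12.4% and 13.0% of all genes. All 10 were above background on both arrays. MYL1, the fast skeletal essential light chain, had an intensity of 13210 on SB-OG and 235 on control-OG, 56.1-fold higher. MYL11, the fast skeletal regulatory light chain, had 14530 on SB-OG and 248 on control-OG, 58.7-fold higher, and MYL4, the embryonic and atrial essential light chain, had 7405 on SB-OG and 503 on control-OG, 14.7-fold higher. MYL9 and MYL12B, regulatory light chains of smooth and non-muscle myosin, had 2935 and 3960 on SB-OG, and 3934 and 6038 on control-OG, both within 2-fold, with another MYL9 probe set at 0.65 on the log2 scale. MYL12A went the other way, with 1375 on SB-OG and 801 on control-OG. That was within 2-fold by its brightest probe set, with others from 0.65 to 1.62 on the log2 scale. With only unmarked probe sets, 2 light chain genes were at least 2-fold higher. MYL1 and MYL5, called by marked probe sets, had no other probe set above background on either array and so gave no call there.

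Of 17 regulators of smooth muscle and non-muscle myosin above background, 4 were at least 2-fold higher on SB-OG and 3 lower, with a median of 0.25, beside 12.4% and 13.0% of all genes. The values that follow describe single genes. S100A4, a calcium-binding protein that disassembles non-muscle IIA filaments, had 4082 on SB-OG and 733 on control-OG, 5.57-fold higher. CDC42BPA, a kinase acting on the myosin phosphatase, had 164 on SB-OG and 527 on control-OG, 3.22-fold lower, with log2 differences of -1.10 to -0.52 for its other probe sets. PPP1R14A, an inhibitor of that phosphatase, had 121 on SB-OG and 34.5 on control-OG, 3.50-fold higher. The other class II heavy chains MYH7B, MYH13, MYH14 and MYH15 had no difference or bound past 2-fold. Of these, MYH7B passed background on the SB-OG array, at 30.3 on SB-OG and 13.0 on control-OG, and MYH15 passed it on the control-OG array, at 20.1 on SB-OG and 37.2 on control-OG.

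**Figure D4:**
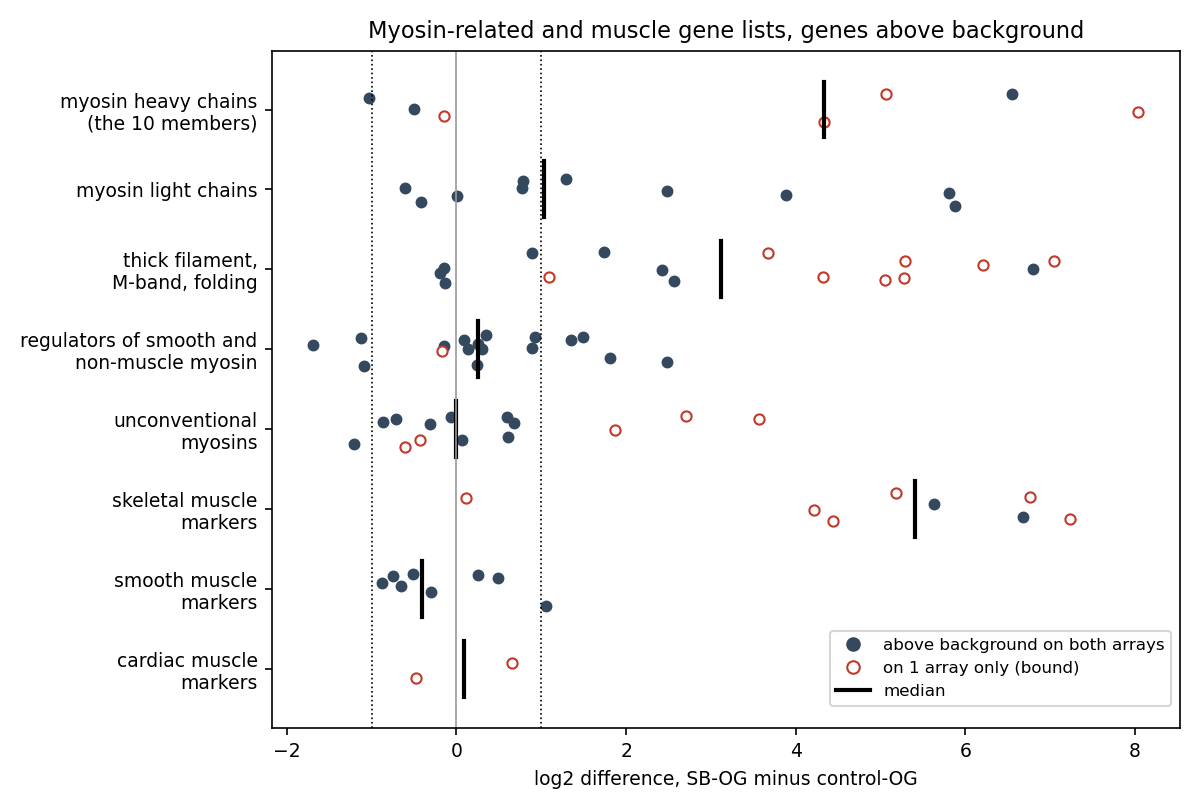
Log2 difference, SB-OG minus control-OG, of genes above background in each list (points, open where the value is a bound) with the list median (bar). Dotted lines mark 2-fold. Of the heavy chains, MYH2, MYH11, MYH3 and MYH8 lie between 4.34 and 8.04, MYH9 at -1.04 and MYH10 at -0.50, and the open point at -0.15 is the bound of MYH7, the thick filament list has a median of 3.12, and the smooth muscle markers have a median of -0.40.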

How the data were processed

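RNA of SB-OG and control-OG outgrowths was measured on 1 GeneChip array each, labelled with biotin per the labels' protocols. The authors deposited linear intensity values, 1 per probe set and array. Which software summarised them was not given in the sources used here. Since the median log2 value of SB-OG minus that of control-OG was -0.052, no rescaling was applied. Names of probe sets follow the platform annotation of 2016, with symbols updated by gene ID. Of them 41091 had 1 gene, 1801 several, 11721 none and 62 were controls. A gene took its brightest probe set by mean log2 intensity over both arrays, and precision is limited by there being 1 array per condition.

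All 10 members and all their probe sets are named. Of each other list, the rule allowed up to 5 names, taken by size of difference from those past 2-fold. Genes within 2-fold or under background that stand beside them were picked with their values in view. The members, lists and marker lists were chosen with earlier results of these data known. With 1 array per condition no test was made. Alternatives were quantile normalization, lowess with a span of 0.4, centring, scaling on hybridisation controls, no floor, the 99th percentile as background, a pseudocount of 16, the mean of all probe sets, unmarked probe sets only, a 3-fold threshold, and counting the shared probe set. The functions were tested on simulated data. Python 3.11.15, numpy 2.4.6, pandas 2.3.3, statsmodels 0.14.6 and matplotlib 3.10.9 were used.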

Additional observations from a re-analysis of the deposited data

How the results depend on the processing

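No paired analysis was possible because each condition has 1 array. No value changed its sign from a 2-fold call under any alternative, and the count of heavy chains at least 2-fold higher, 4, was 3 with unmarked probe sets, 5 with no floor and with the shared probe set counted, and 4 in the others. MYH3 ranged from 6.37 to 7.02, MYH8 from 7.34 to 8.52, MYH2 from 3.64 to 8.34, MYH11 from 1.64 to 6.90, MYH7 from -0.17 to 1.66, MYH9 from -1.07 to -0.56 and MYH10 from -0.50 to -0.030.

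Scaling on the hybridisation controls gave 7.02 for MYH3, 8.52 for MYH8, 4.81 for MYH2 and for the members' median, 0.33 for MYH7, 5.54 for MYH11, -0.56 for MYH9 and -0.030 for MYH10. It gave 3055 genes at least 2-fold higher and 908 lower, against 1565 and 1638, 1 regulator lower, and 6 unconventional myosins higher and 0 lower. No floor gave 8.34 for MYH2, 1.66 for MYH7, 6.90 for MYH11 and 6.55 for the members' median, with 1 other class II heavy chain higher. The 99th percentile gave 7.34 for MYH8, 3.64 for MYH2 and 4.36 for MYH11. The pseudocount gave 5.20 for MYH2 and for the members' median and 0.83 for MYH7. The mean of all probe sets gave 1.64 for MYH11 and for the members' median. Unmarked probe sets gave a members' median of 5.44, 2 regulators, 2 light chains and 1 unconventional myosin higher, and no value for MYH9, which has no such probe set. At 3-fold, 795 genes were higher and 804 lower, with 2 regulators higher and 1 lower. The count of heavy chains at least 2-fold lower was 1, and 0 with centring, with the control scaling, with unmarked probe sets and at 3-fold. Unconventional myosins at least 2-fold lower numbered 1, against 2 with no floor, the pseudocount and the mean, and 0 at 3-fold. The floors move with the background level, so bounds for MYH2, MYH8 and MYH11 move with it by construction. The cause of the other shifts was not tested. Dim signal limits MYH1, MYH4, MYH6 and MYH7, which lie near or under background.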

Other observations

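The unconventional myosins, motors that carry cargo or tether membranes and do not form thick filaments, divided in another way. Background was passed by 14 of 22 genes, of which 3 were at least 2-fold higher on SB-OG and 1 lower, with a median difference of -0.0025, beside 12.4% and 13.0% of all genes above background. The 3 higher genes, MYO18B, MYO5B and MYO5C, passed background only on SB-OG, which favours a higher value there. MYO18B, a myosin needed for sarcomere assembly, had an intensity of 376 on SB-OG and 10.2 on control-OG, at least 11.8-fold higher. MYO5B and MYO5C, transport motors best known from epithelia, had 208 and 116 on SB-OG, and 7.84 and 21.5 on control-OG, at least 6.54-fold and at least 3.64-fold higher, with a second MYO5B probe set at 0.038 on the log2 scale. MYO1E, a membrane-linked motor, had 134 on SB-OG and 309 on control-OG, 2.31-fold lower. Epithelial markers went the other way from the MYO5 motors in 3 of 4 genes above background, KRT8, KRT18 and KRT19 being lower on SB-OG, while CDH1 had 82.8 on SB-OG and 26.9 on control-OG. The part of epithelial cells in the MYO5B and MYO5C values was not tested.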
